A study of Mus musculus with 3 samples.

Results

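The 9 Wnt ligand genes Wnt4, Wnt5a, Wnt5b, Wnt6, Wnt7b, Wnt10a, Wnt10b, Wnt11 and Wnt16 were followed across the epithelial and mesenchymal cells sorted from mouse molars. They were taken by gene symbol from the features shared by all libraries, joined by gene identifier, and they are 9 of 19 Wnt ligands among 21446 shared genes. Cells came from molars of mice carrying a Pthrp-mCherry knock-in, a reporter of the gene for parathyroid hormone-related protein, at postnatal day 15 (P15), day 25 (P25) and 8 weeks (8w). They were dissociated after the gingiva was removed, sorted for mCherry and profiled by droplet single-cell RNA sequencing, in which each unique molecular identifier (UMI) stands for 1 captured transcript. Each age was 1 library, and all 3 libraries carried the reporter on a C57BL/6 background with both sexes used, so the design held no library without the reporter and no repeat of an age. No test was made between ages, since age, library and sort cannot be told apart.

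Wnt proteins are secreted glycoproteins that carry a lipid added by the acyltransferase Porcupine, and they need the carrier Wntless to leave the cell. At the receiving cell they bind Frizzled receptors. With Lrp5 or Lrp6 as co-receptor they stabilise beta-catenin, and with Ror1, Ror2 or Ryk they act on cell shape and polarity. In teeth, Wnt10a is the ligand whose loss causes missing and misshapen teeth, Wnt4 and Wnt6 are known from dental epithelium, and Wnt5a is the classical mesenchymal ligand of the non-canonical branch.

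The libraries held 12926, 8971 and 5192 cells at P15, P25 and 8w, with medians of 14254, 15834 and 8713 UMIs per cell. Cells were placed by UMIs of 7 gate genes, none of them a Wnt gene: Krt14 for epithelium, Ptprc for blood-derived cells, and Rgs5 (mural cells), Ifitm5 and Ibsp (mineralizing cells), Pappa2 and Hand2 for mesenchyme, in that order of precedence. A cell was positive with at least 2 UMIs of the gene and a share of its UMIs above the mean share of that gene over the libraries. The Krt14 gate held 1614, 936 and 130 cells, the Ibsp gate 789, 1196 and 951, the Ifitm5 gate 730, 870 and 286, the Hand2 gate 221, 542 and 348, the Rgs5 gate 658, 290 and 319, and the Pappa2 gate 642, 52 and 29. No gate gene was positive in 56.9%, 53.6% and 59.8% of cells, and 125, 78 and 6 cells positive for Krt14 or Ptprc together with another gate gene were set aside. Because of the order of precedence, the Rgs5 gate contained cells positive for other mesenchymal gate genes, Ibsp among them. Of its 658, 290 and 319 cells, 459, 234 and 263 were positive for Rgs5 alone. Likewise the Ifitm5 gate contained Ibsp-positive cells, and the Ibsp and Pappa2 gates contained Hand2-positive cells.

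The labels call the sorted cells cementoblasts and their precursors, and the Krt14 and Ptprc gates show that the sort also held epithelial and blood-derived cells. Of 8 other epithelial markers (such as Krt5, Trp63 and Epcam) the summed level in the Krt14 gate was 8275, 13738 and 12295 CPM (UMIs of a gene scaled to a common total per sum), against 20.7 to 110 CPM in the mesenchymal gates. Of 9 blood-cell markers the Krt14 gate held 583, 144 and 13.4 CPM, against 123314, 25930 and 38653 CPM in the Ptprc gate. The label of the Rgs5 gate was less firm: Notch3, a defining receptor of mural cells, stood at 153 CPM there at P15 but at 33.1 and 8.94 CPM at P25 and 8w. Together the 7 mural markers, Notch3 included, summed to 1153, 344 and 412 CPM there, the highest of any gate at each age. Of the 2 markers fixed for the Pappa2 gate, Col13a1 stood at 141, 8.00 and 0 CPM. With Spon2 the pair summed to 230, 113 and 66.0 CPM. At 8w the Hand2 and Ifitm5 gates held more of the pair, 84.3 and 72.5 CPM. The gates are therefore called by their genes. The libraries shared 13 to 26 cell barcodes in pairs, and the P25 library's file header names another counting version and a larger gene list than those of P15 and 8w.

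Positions are from the GENCODE vM21 annotation of the GRCm38 genome. Wnt6 (chr1:74771892-74785322, plus strand) and Wnt10a (chr1:74791516-74804179, plus strand) are neighbours on chromosome 1 with 6193 bases between them. Wnt4 is at chr4:137277489-137299726, Wnt16 at chr6:22288227-22298522, Wnt11 at chr7:98835112-98855195 and Wnt5a at chr14:28504750-28527448, all on the plus strand. Wnt5b (chr6:119432531-119544347), Wnt7b (chr15:85535437-85582473) and Wnt10b (chr15:98770712-98778150) are on the minus strand. Antisense genes annotated over Wnt5a, Wnt6 and Wnt7b were counted as genes of their own in the P25 file alone, and Fbxl14 overlaps Wnt5b on the opposite strand.

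Promoters are shown because Wnt genes can themselves be targets of the beta-catenin partners TCF and LEF. The letters CTTTGAT, or ATCAAAG on the other strand, were searched in RefSeq windows from 250 bases before to 50 bases after each start (GRCm38.p6), and 6 of the 9 genes had an entry, with 9 starts. They occurred at 2 of these starts, against 3.73% of all 32851 windows, and both are printed with the matched letters in capitals. A match of letters is a description and not a binding site.
Wnt5b, most downstream of its 3 starts, chr6:119449440-119449468, minus strand: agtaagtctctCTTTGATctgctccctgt
Wnt11, upstream start, chr7:98835050-98835078, plus strand: gacgtgggcggATCAAAGcgacggtccgc
The first matched letter lay 71 bases before the Wnt5b start and 51 bases before the Wnt11 start. Wnt5a, Wnt7b and Wnt10a had no entry.

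Levels are given as CPM of the summed UMIs of a gate and library, with exact 95% Poisson intervals that cover counting error alone. They are compared between gates within a gene and not between genes, since capture differs among transcripts. Blood-derived cells of the Ptprc gate served as the background of free RNA: at P15 and P25 they held 8.88 and 4.33 CPM of Wnt4, 21.6 and 46.2 of Wnt5a, 2.47 and 1.73 of Wnt5b, 8.68 and 6.06 of Wnt6, 1.08 and 1.44 of Wnt7b, 10.9 and 11.8 of Wnt10a and 2.66 and 1.73 of Wnt11. A level near these values is read as background. No such level is given for Wnt10b and Wnt16, nor for 8w, where the Ptprc gate held 19 cells, so those levels are not read against it.

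**Figure D1:**
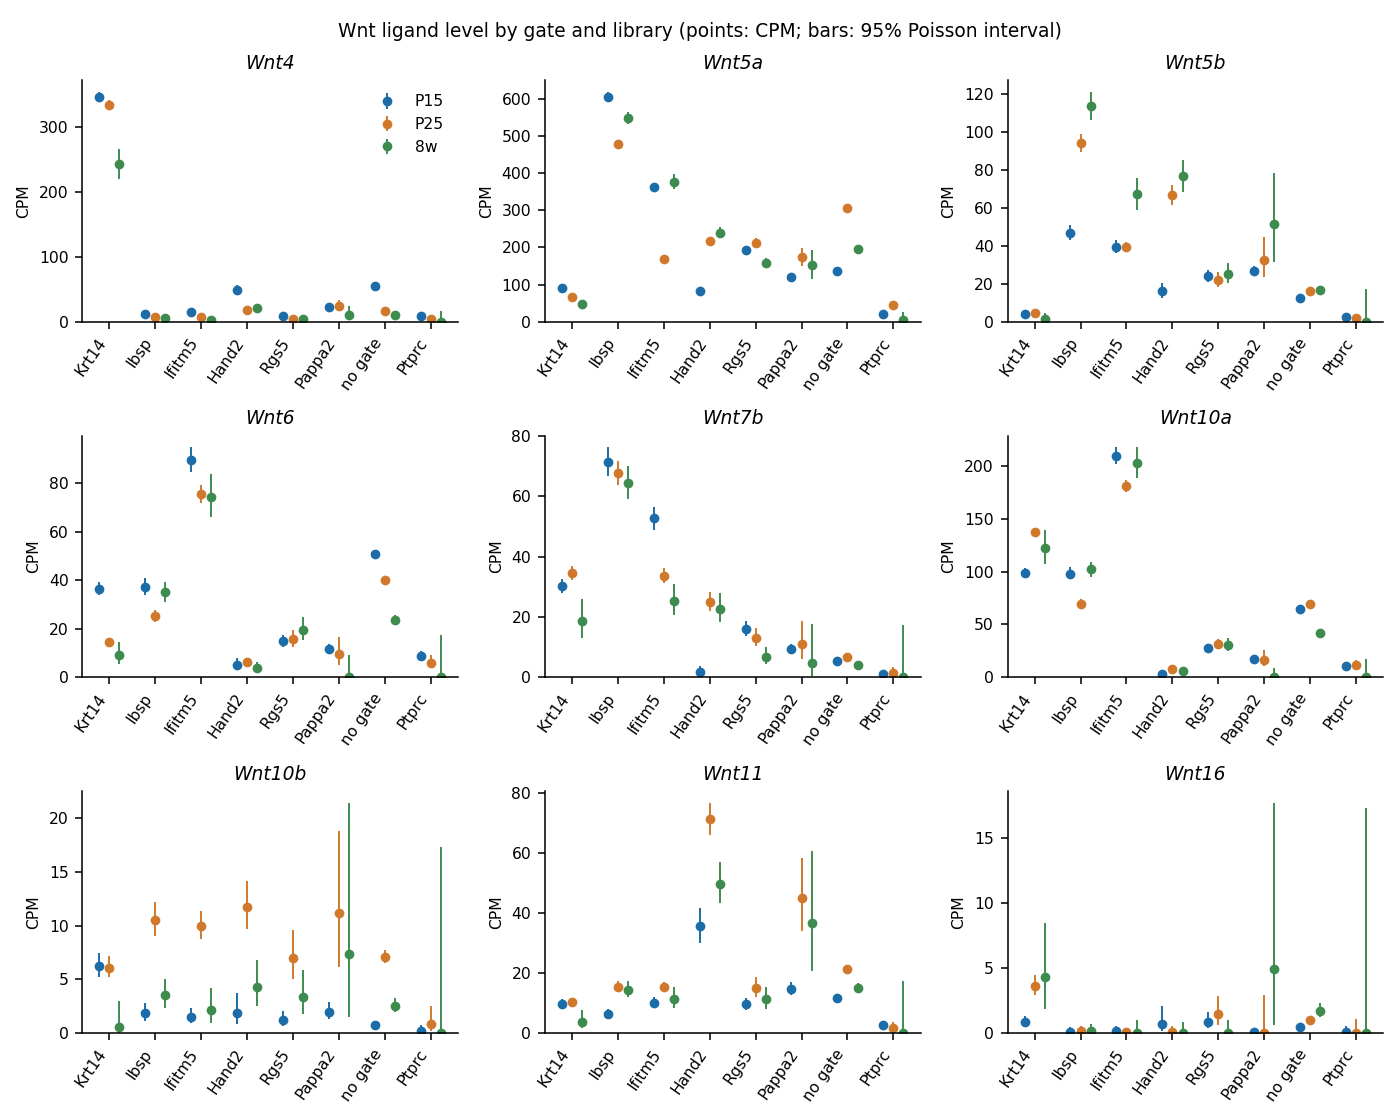
Level of each ligand (CPM, linear axis from 0) by gate, with 1 point per library and bars for the 95% Poisson interval. Wnt4 stood at 243 to 347 CPM in the Krt14 gate and at or below 55.3 CPM elsewhere. Wnt5a, Wnt5b and Wnt7b were highest in the Ibsp gate, and Wnt6 and Wnt10a in the Ifitm5 gate, in every library.

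Wnt4 was highest in the epithelial Krt14 gate in every library. Its level in the Krt14 gate was 347 CPM (interval 339 to 355) at P15, 335 (328 to 342) at P25 and 243 (221 to 266) at 8w. The next gate by its mean over libraries, Hand2, held 49.8, 18.2 and 20.9 CPM, and the remaining gated mesenchyme 3.19 to 24.0 CPM, the highest of these in the Pappa2 gate at P25. The Krt14 range did not overlap any other. After each cell was thinned to 3000 UMIs, 51.7% of Krt14-gated cells at P15 held a Wnt4 UMI (exact 95% interval 48.7 to 54.8%, n = 1065 cells), 56.1% at P25 (52.4 to 59.7%, n = 729) and 50.5% at 8w (40.1 to 60.9%, n = 95). The same share was 3.29%, 2.03% and 0% in the Ptprc gate (0 of 16 cells at 8w), and without thinning the Krt14 shares were 63.1%, 78.1% and 69.2%. The Krt14 gate held 12.5%, 10.4% and 2.50% of all cells.

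Within the Krt14 gate Wnt4 was not tied to 1 kind of epithelium. Cells with Odam, a gene of the junctional epithelium and of epithelial rests, held 373, 398 and 334 CPM of Wnt4, against 337, 310 and 229 in the others, and at 8w only 14 cells had Odam. Cells with the suprabasal keratins Krt10 or Krt13 held 378, 314 and 231 CPM against 338, 373 and 254, so their order turned between P15 and P25. At 8w both values lay within the interval of the whole gate, 221 to 266 CPM. Cycling cells with Mki67 or Top2a held 247, 303 and 228 CPM against 378, 382 and 263, the lower value at each age, though the intervals met at 8w (201 to 259 against 229 to 302). Every one of these groups lay above every mesenchymal gate.

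Wnt10a was also found in the Krt14 gate, at 98.8, 137 and 122 CPM, but its highest level was mesenchymal, in the Ifitm5 gate. Cells with Krt10 or Krt13 held 117 and 73.4 CPM of Wnt10a at P25 and 8w against 174 and 169 in the other Krt14-gated cells, whereas at P15 the values were 100.3 and 98.4 CPM. In thinned Krt14-gated cells with a Wnt4 UMI, 27.8%, 33.7% and 29.2% also held Wnt10a, and of those without Wnt4, 18.7%, 21.9% and 23.4% did. Both ligands were thus found in the same epithelial cells at each age.

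Wnt5a was also present in the Krt14 gate, at 91.7, 66.2 and 47.2 CPM, and 23.5%, 17.4% and 11.6% of its thinned cells held a UMI. Wnt6 in the Krt14 gate stood at 36.5, 14.6 and 9.12 CPM, and Wnt7b at 30.2, 34.6 and 18.8 CPM. Wnt11 there was concentrated in cells with Odam at P25, at 30.6 CPM (26.7 to 34.9) against 2.09 (1.48 to 2.87), while at P15 it was 12.7 against 8.67 CPM. Wnt16 reached 0.823, 3.62 and 4.29 CPM, from 17 UMIs or more in the larger libraries and 8 UMIs at 8w. Wnt5b was near absent, at 4.21, 4.41 and 1.61 CPM.

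The question of epithelium against mesenchyme was tested on 23 sums of UMIs per gate and library of at least 20 cells, with the library as a block, with the quasi-likelihood F test of edgeR, and p-values were adjusted over all 14254 genes tested (Benjamini-Hochberg). The 5 mesenchymal gates were averaged equally on the log2 scale. With the library as a block, these p-values rest on how far gate differences varied among the 3 libraries. For each gene all gates share that spread, the Ptprc and no-gate sums included. The libraries are different ages and their sums come from the same few cell suspensions, so it is not a spread between animals. Epithelium and mesenchyme differed broadly: 32.1% of all genes were called higher in the Krt14 gate and 30.7% lower. Of the 9 ligands 3 were called higher and 3 lower, a share near that background, so the calls say little of the ligands as a set. Their median log2 fold change was 0.46 beside -0.00 for all genes.

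The sizes differed more than the calls. Wnt4 was 30.6-fold higher in the Krt14 gate (log2 4.94 ± 0.19 SE, adjusted p = 3.10e-12), Wnt16 was higher by 3.35 ± 0.67 (adjusted p = 0.000342) and Wnt10a by 1.87 ± 0.21 (adjusted p = 1.11e-06). For Wnt16 the Krt14 gate was the highest gate at P25 alone. It held 0.823 CPM against 0.847 in the Rgs5 gate at P15, and 4.29 against 4.89 in the Pappa2 gate at 8w, with overlapping intervals. Wnt5b was 9.48-fold lower (log2 -3.25 ± 0.36, adjusted p = 8.70e-07), Wnt5a lower by log2 -1.68 ± 0.33 (adjusted p = 0.000324) and Wnt11 by -0.97 ± 0.26 (adjusted p = 0.00428). Wnt6 (0.19), Wnt7b (0.46) and Wnt10b (0.63) were not called. The size of the Wnt10a difference depends on the equal weight of the gates, 3 of which hold little of it: summed over all cells of the mesenchymal gates, Wnt10a was 85.6, 98.1 and 86.0 CPM, still below the Krt14 gate in 3 of 3 libraries. In the same sums Wnt7b was 34.9, 39.9 and 37.0 CPM and Wnt6 37.4, 40.6 and 32.4 CPM, each at or above the Krt14 gate. Without the P25 library Wnt16 (2.80) and Wnt11 were no longer called, and Wnt11 also was not without 8w.

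**Figure D2:**
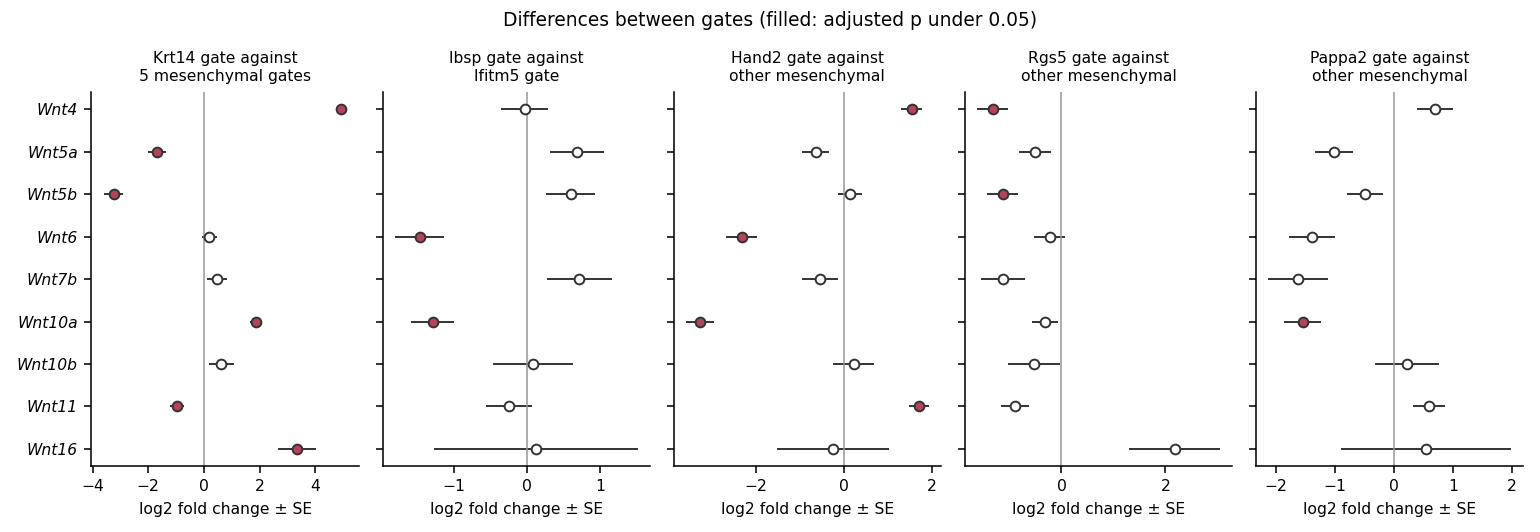
Log2 fold change with its SE for each ligand in the 5 comparisons between gates (linear axis, filled points for an adjusted p under 0.05 by edgeR). Wnt4 at 4.94 and Wnt5b at -3.25 are the far points of the epithelial comparison, and Wnt10a at -3.28 that of the Hand2 comparison.

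Wnt5a was highest in the Ibsp gate, at 605 CPM (591 to 619) at P15, 479 (468 to 489) at P25 and 549 (533 to 565) at 8w. Ibsp encodes bone sialoprotein, a matrix protein of mineralized tissue. By the mean over libraries the Ifitm5 gate followed with 362, 169 and 377 CPM, then the Rgs5 gate with 194, 212 and 157, the Hand2 gate with 82.9, 217 and 239, and the Pappa2 gate with 119, 174 and 152 CPM. At P25 the Ifitm5 gate was the lowest of these mesenchymal gates. The Ibsp range stood clear of the next, and the ranges of the other mesenchymal gates overlapped in that order. The Krt14 gate had the lowest mean of Wnt5a, yet lay above the blood-derived cells at P15 and P25. Of thinned Ibsp-gated cells, 73.5%, 65.3% and 65.0% held a Wnt5a UMI, against 4.66%, 3.55% and 0% in the Ptprc gate (unthinned 93.5%, 90.6% and 85% against 15%, 12.6% and 5.26%).

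Wnt7b was also highest in the Ibsp gate, at 71.3, 67.7 and 64.4 CPM, followed by the Ifitm5 gate at 52.7, 33.7 and 25.5, whose range overlapped that of the Krt14 gate. It is known as an osteogenic ligand of bone. In the Hand2 gate Wnt7b was 1.87 CPM at P15, near the blood-derived level, and 25 and 22.8 CPM at P25 and 8w. Wnt5b, the close relative of Wnt5a, stood at 46.8, 94.2 and 114 CPM in the Ibsp gate. Its level in the Hand2 gate was 16.4, 66.8 and 76.7 CPM and in the Ifitm5 gate 39.5, 39.5 and 67.2 CPM, so that the 3 ranges over the libraries overlapped. Within each library, however, the Ibsp gate was the highest for Wnt5b, with its interval apart from those of the Hand2 and Ifitm5 gates.

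Wnt6 and Wnt10a, the neighbours on chromosome 1, were both highest in the Ifitm5 gate. Ifitm5 encodes a membrane protein of mineralizing osteoblasts. Wnt10a there was 210 CPM (202 to 217), 180 (175 to 186) and 203 (188 to 217), and Wnt6 89.5 (84.6 to 94.6), 75.4 (71.9 to 79.1) and 74.3 (65.9 to 83.6). The Ibsp gate held 98.2, 69.6 and 102 CPM of Wnt10a and 37.2, 25.1 and 35.1 CPM of Wnt6. In the Hand2 gate both were near or below the blood-derived level at P15 and P25, with 3.50, 7.62 and 5.94 CPM of Wnt10a and 5.14, 6.3 and 3.8 CPM of Wnt6. Of thinned Ifitm5-gated cells, 42.0%, 39.3% and 41.1% held a Wnt10a UMI, against 3.01%, 3.55% and 0% in the Ptprc gate (unthinned 80.1%, 81.1% and 72.7% against 7.98%, 9.09% and 0%).

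Both genes were also found in the same cells, among which doublets within a gate were not removed. Of thinned Ifitm5-gated cells with a Wnt6 UMI, 55.3%, 47.6% and 47.1% held Wnt10a, and of those without Wnt6, 38.2%, 37.4% and 39.7% did. In the Ibsp gate the shares were 47.7%, 34.3% and 43.7% against 17.7%, 16.2% and 19.1%. Among cells in no gate they were 34.1%, 33.6% and 39.7% against 11.5%, 11.2% and 5.8%. Over the 23 sums the log2 levels of Wnt6 and Wnt10a had a Pearson r of 0.87, the highest of any pair of the 9 ligands, and that of Wnt5a and Wnt5b was 0.85. The sums share libraries and depth, and these values are descriptions.

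Between the Ibsp and Ifitm5 gates the fit called few genes, 2.12% higher and 3.3% lower in the Ibsp gate, and of the ligands Wnt6 (log2 -1.48 ± 0.34, edgeR adjusted p = 0.0186) and Wnt10a (-1.30 ± 0.29, adjusted p = 0.0173) lower. Their levels were lower in the Ibsp gate in 3 of 3 libraries, with intervals apart in each. Wnt5a (0.69, adjusted p = 0.338), Wnt5b (0.60, adjusted p = 0.358) and Wnt7b (0.72, adjusted p = 0.419) were not called, although each was higher in the Ibsp gate in 3 of 3 libraries. The median of the 9 was 0.09 beside 0.02 for all genes. The definition of the gates carried weight: with cells positive for exactly 1 gate gene, Wnt5a (2.30), Wnt5b (1.59) and Wnt7b (2.56) were called higher in Ibsp cells too. Without P25, or without 8w, no ligand was called. With scaling by total counts, 63.2% of all calls were higher in the Ibsp gate, against 39.1% with TMM.

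The Ifitm5 gate was therefore divided by Ibsp, a split chosen after its values were seen and described without a test. Ifitm5-gated cells with Ibsp (434, 416 and 178 cells) held 574, 310 and 567 CPM of Wnt5a, and those without (296, 454 and 108 cells) 110, 73.5 and 131 CPM. Wnt7b stood at 92.0, 61.5 and 38.6 CPM with Ibsp and 5.8, 15 and 8.52 without, and Wnt5b at 59.3, 58.3 and 98.4 against 15.8, 26.9 and 26.8 CPM. Wnt5a, Wnt5b and Wnt7b thus followed Ibsp within the Ifitm5 gate at each age. Wnt10a did not: it was 181, 182 and 231 CPM with Ibsp and 244, 179 and 165 without. Wnt6 likewise changed its order, from 56.7 against 129 CPM at P15 to 91.4 against 52.3 at 8w. Cells of the Rgs5 gate showed the same for Wnt5a, with 524, 550 and 514 CPM where Ibsp was positive and 117, 148 and 95.1 where it was not.

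**Figure D3:**
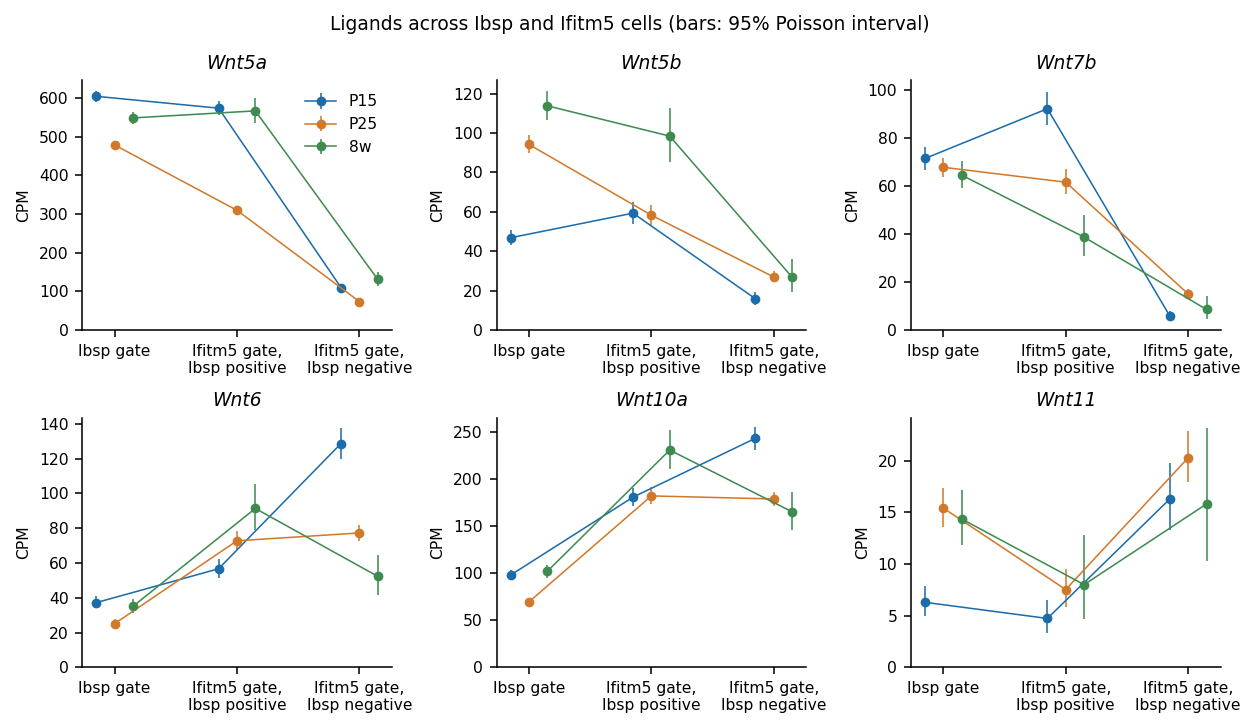
Level (CPM, linear axes from 0) of ligands in the Ibsp gate and in Ifitm5-gated cells with and without Ibsp, with 1 line per library and bars for the 95% Poisson interval. Wnt5a drops from 310 to 574 CPM with Ibsp to 73.5 to 131 CPM without, and Wnt10a stays between 165 and 244 CPM in both.

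Wnt11 was highest in the Hand2 gate in every library, though other ligands such as Wnt5a were also found there. Hand2 is a transcription factor of the jaw mesenchyme, and Hand2-gated cells also held the periapical markers Nts (1136, 1399 and 1306 CPM) and Alx1 (154, 148 and 162 CPM). Wnt11 stood there at 35.5 CPM (30.1 to 41.6), 71.1 (65.9 to 76.6) and 49.6 (43.1 to 56.9), and next in the Pappa2 gate at 14.7, 44.8 and 36.7 CPM, whose range overlapped. At P25 and 8w the Pappa2 gate itself held the 4 periapical markers at a sum of 4238 and 6218 CPM, and their part in its Wnt11 was not tested. The Ibsp gate held 6.30, 15.4 and 14.4 CPM. Of thinned Hand2-gated cells 8.72%, 19.4% and 13.9% held a Wnt11 UMI, against 0.822%, 0% and 0% in the Ptprc gate (unthinned 40.3%, 54.8% and 36.2% against 2.53%, 2.53% and 0%).

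Against the other 4 mesenchymal gates, 2.48% of all genes were called higher in the Hand2 gate and 2.79% lower, and 4 of the 9 ligands were called. Wnt11 (log2 1.71 ± 0.22, edgeR adjusted p = 0.000360) and Wnt4 (1.54 ± 0.24, adjusted p = 0.00114) were higher. Wnt10a was 9.69-fold lower (-3.28 ± 0.32, adjusted p = 3.69e-05) and Wnt6 5.02-fold lower (-2.33 ± 0.36, adjusted p = 0.00114). Each of these 4 kept its direction against the pooled other gates in 3 of 3 libraries. Low Wnt6 and Wnt10a were not particular to the Hand2 gate. The Pappa2 gate held 11.6, 9.60 and 0 CPM of Wnt6 and 17.5, 16.8 and 0 CPM of Wnt10a. Wnt6 and Wnt10a in the Hand2 gate lay near or below the blood-derived level at P15 and P25, so their fold sizes are uncertain. At P25 Wnt4 was 24.0 CPM (16.2 to 34.3) in the Pappa2 gate and 18.2 (15.6 to 21.0) in the Hand2 gate, with overlapping intervals. The median of the 9 was -0.25 beside -0.00 for all genes. Without P25 only the Wnt10a call remained, and with total-count scaling 60.9% of all calls were higher, against 47.0%. Beside the Wnt4 of the Hand2 gate, the 8 epithelial markers summed to 62.8, 67.1 and 22.8 CPM there. In the other 4 mesenchymal gates they summed to 74.4 to 110 CPM at P15, 62.0 to 106 at P25 and 20.7 to 34.2 at 8w. Their part in the result was not tested.

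Inside the Ibsp gate, cells with Hand2 (28, 576 and 452) held 37.2, 46.1 and 78.3 CPM of Wnt10a against 101, 94.3 and 131 in cells without, a division chosen after the values were seen. Wnt11 was 16.9 against 13.8 CPM at P25 and 14.1 against 14.7 at 8w, with overlapping intervals.

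The Rgs5 gate had lower Wnt4 (-1.32 ± 0.30, edgeR adjusted p = 0.0123) and Wnt5b (-1.13 ± 0.30, adjusted p = 0.0283) than the other 4 mesenchymal gates, where 1.51% of all genes were lower and 6.02% higher. Wnt4 there was 9.41, 4.86 and 3.63 CPM, near the blood-derived level at P15 and P25, and Wnt5b 24.1, 22 and 25.2 CPM. Low Wnt4 was not particular to this gate: the Ibsp gate held 12.4, 8.09 and 5.72 CPM and the Ifitm5 gate 15.2, 6.88 and 3.19 CPM. At P15 Wnt5b was lower still in the Hand2 gate (16.4 CPM) and close in the Pappa2 gate (26.7 CPM). The value of Wnt11 was -0.90 and was not called (adjusted p = 0.0516). The median was -0.53 beside 0.00. Neither call held without P25 or without 8w, and 90.4% of all calls were higher with total-count scaling, against 80.0%. With cells positive for exactly 1 gate gene, Wnt6, Wnt7b and Wnt10a were called lower as well.

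In the Pappa2 gate 1 ligand was called, Wnt10a, lower by -1.55 ± 0.31 (edgeR adjusted p = 0.0170), where 0.554% of all genes were lower and 1.13% higher. It stood at 17.5 and 16.8 CPM at P15 and P25, close above the blood-derived level. At 8w 0 UMIs were counted, and the interval allows up to 9.02 CPM in that sum of 29 cells. The call was lost without any 1 of the libraries. The median was -0.49 beside -0.02, and total-count scaling raised the higher share of all calls from 67.1% to 80.3%.

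Wnt10b and Wnt16 were the rare members. Wnt10b, a ligand known from bone mass, totalled 301, 1280 and 132 UMIs over the libraries, and no gate stood clear of the others. At P15 its level in the Krt14 gate was 6.25 CPM (5.22 to 7.42) against 0.720 to 1.98 CPM elsewhere. At P25 it was 6.101 CPM there and 7.02 to 11.8 CPM in the mesenchymal gates, and at 8w 1 UMI was left in the Krt14 gate (0.536 CPM) against 2.12 to 7.34 CPM. Wnt16, a ligand of bone and joint, totalled 85, 184 and 52 UMIs, of which the Krt14 gate held 20%, 50% and 15.4%.

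Where the UMIs of a ligand lay differs from where its level was highest, since over 50% of cells were in no gate. The Krt14 gate held 50.7%, 79.0% and 53.0% of all Wnt4 UMIs. The Ibsp gate held 22.4%, 20.1% and 36.6% of those of Wnt5a and 27.2%, 30.7% and 59.9% of those of Wnt7b. Cells in no gate held the largest share of Wnt5a, 41.5%, 56.0% and 37.8%, of Wnt6, 63.3%, 52.0% and 45.8%, and of Wnt10a, 47.6%, 35.6% and 33.7%. Of Wnt6 and Wnt10a the Ifitm5 gate held 15.7%, 29.6% and 22.6% and 21.8%, 28.0% and 25.7%. At least 1 of the 9 ligands was found in 85.8%, 83.7% and 83.5% of thinned Ibsp-gated cells and in 13.8%, 9.1% and 0% of Ptprc-gated cells.

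**Figure D4:**
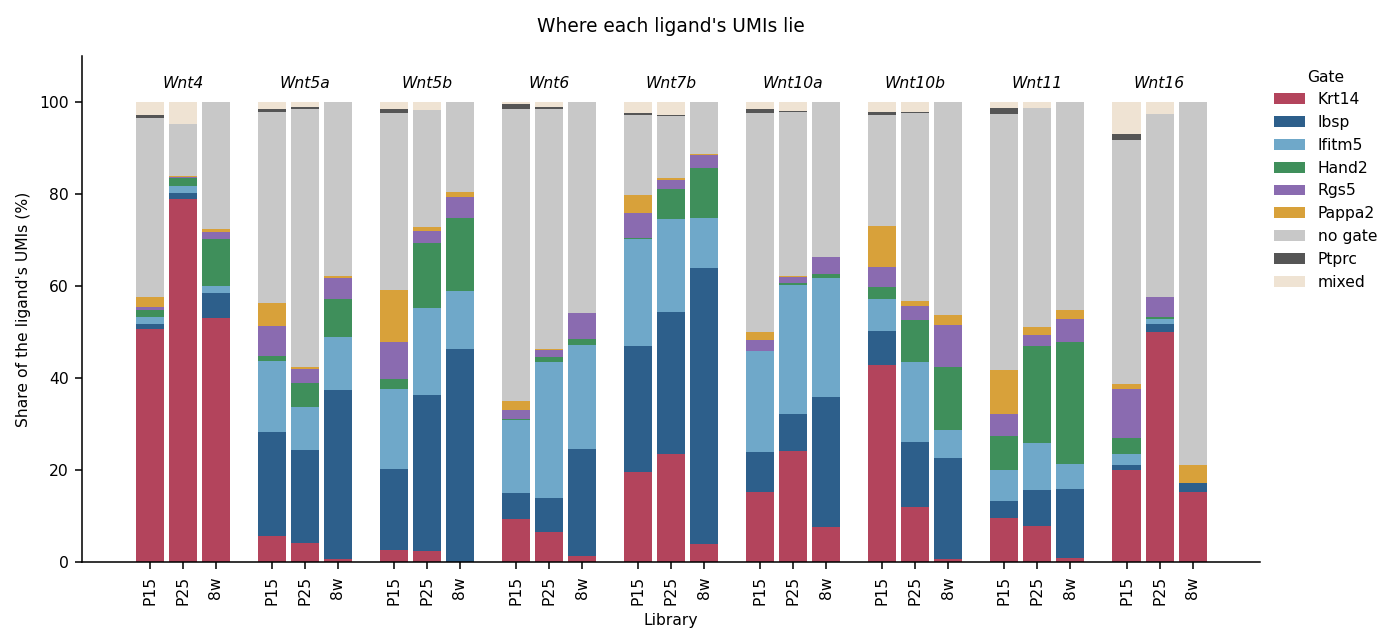
Share (%) of the UMIs of each ligand held by each gate, with 1 stacked bar per ligand and library. The Krt14 gate holds 50.7% to 79.0% of Wnt4, and cells in no gate hold 33.7% to 63.3% of Wnt6 and Wnt10a.

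The cells in no gate were divided by single genes that stood out among their ligand-positive cells. These genes were chosen after the values were seen, so what follows is a description. Cells with Trp63, an epithelial transcription factor, numbered 280, 39 and 3 and held 1200.2, 1029 and 1092 CPM of Wnt4, above the Krt14 gate itself, while the others held 16.7, 8.92 and 9.02 CPM. They carried 27.5%, 5.18% and 2.46% of all Wnt4 UMIs. Their Krt14 was 860, 760 and 468 CPM, under the gate, and they also held Dsc3. Wnt4 at P15 thus lay in Trp63-positive cells of low Krt14 as well as in the gate. Trp63 was not the first companion of Wnt4 in no gate. In cells with at least 5 Wnt4 UMIs Amelx ranked 1 at P15, at 3387 CPM against 3.20 without Wnt4, and Trp63 ranked 10. At P25 Lipf ranked 1, at 3712 against 0.204 CPM. The Trp63-positive cells held 49.6 CPM of Amelx at P15, so some Wnt4-rich cells there lay among the others. Adding Trp63-positive cells to the Krt14 gate left all 6 calls of the epithelial comparison in place.

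Cells with Coch, which encodes cochlin, numbered 1304, 268 and 53. They held 181, 104 and 44.4 CPM of Wnt10a against 28.8, 67.4 and 41.9, and 111, 60.4 and 6.06 CPM of Wnt6 against 32.5, 38.9 and 24.2. At P15 they carried 31.3% of all Wnt10a UMIs and 32.3% of all Wnt6 UMIs in 10.1% of cells, and at 8w no excess was left. Cells with Col7a1, which encodes the anchoring-fibril collagen, numbered 712, 620 and 88. They held 266, 1165 and 1521 CPM of Wnt5a against 120, 132 and 135, and 92.5, 200 and 300 CPM of Wnt10a against 60.8, 43.4 and 30.2. At P25 they held 35.9% of all Wnt5a UMIs in 6.91% of cells, and a level above that of the Ibsp gate. Coch had stood out beside Wnt6 and Wnt10a at P15 alone, and Col7a1 beside Wnt5a and Wnt10a at P25 and 8w alone. The choice of these genes thus favours an excess at those ages, and no course over age is read from it.

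The rare ligands also had a place outside the gates. Cells with Cilp2, a cartilage matrix gene, numbered only 30, 24 and 30 and held 49.9 CPM (31.7 to 74.9), 64.8 (45.4 to 89.7) and 68.3 (40.5 to 108) of Wnt16, against 0.222, 0.505 and 0.975 CPM in the other cells in no gate. They carried 27.1%, 19.6% and 34.6% of all Wnt16 UMIs. Cells with Pi16, a fibroblast marker, numbered 50, 77 and 185 and held 3.04, 34.5 and 10.54 CPM of Wnt10b against 0.708, 6.50 and 1.75, and at P15 this rests on 2 UMIs.

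**Figure D5:**
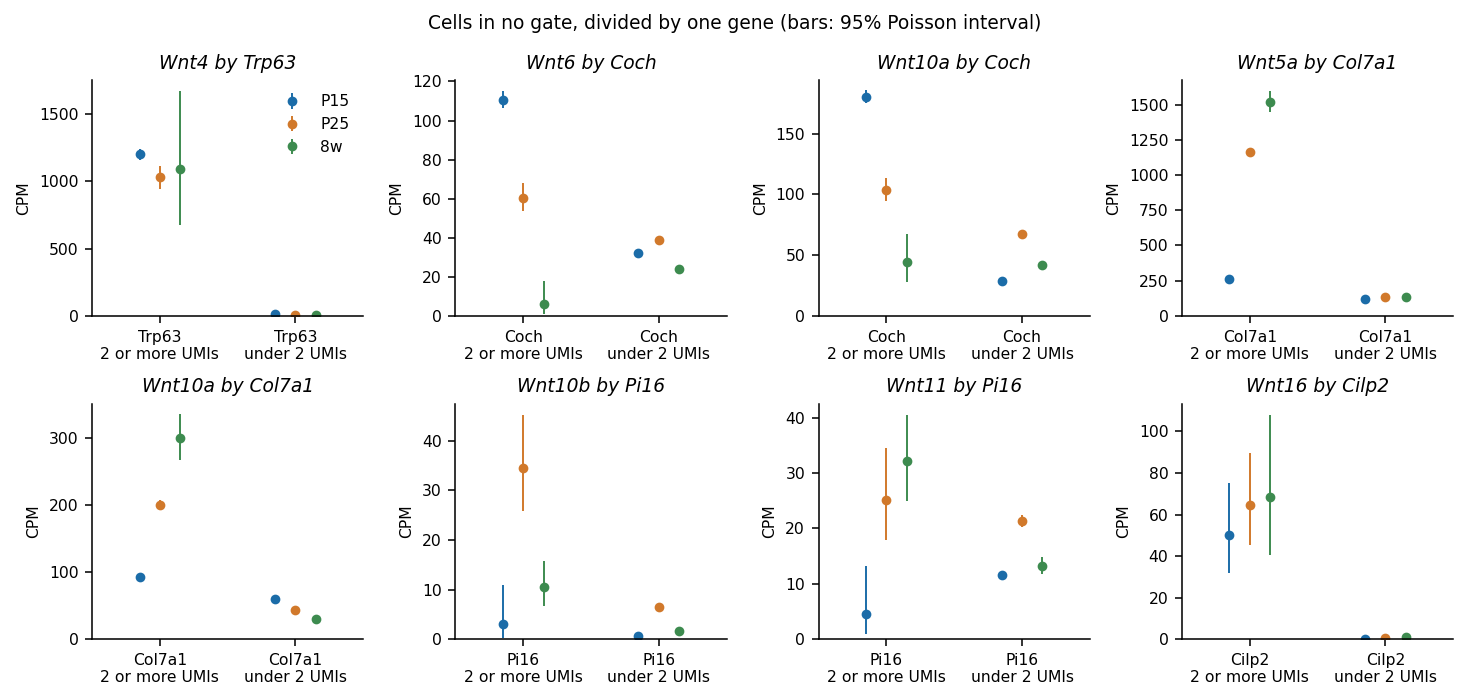
Level (CPM, linear axes from 0) of ligands in cells of no gate, divided by whether 1 gene had 2 or more UMIs, with 1 point per library and bars for the 95% Poisson interval. Wnt4 stands at 1029 CPM or more with Trp63 and at 16.7 CPM or less without, and Wnt16 at 49.9 to 68.3 CPM with Cilp2 and under 1 CPM without.

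Side by side, over all cells of a library the level of Wnt4 was 75.4, 66.7 and 18.5 CPM, from 14146, 10770 and 854 UMIs. Within the Krt14 gate it was 347, 335 and 243 CPM, and the gate was also a smaller share of the cells at 8w. Wnt5a stood at 173, 249 and 267 CPM over all cells and Wnt10a at 71.6, 89.4 and 64.3 CPM. 

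For each ligand the 3 genes whose log2(CPM + 5) ran most alike over the 23 sums were listed, with Pearson r and no p. Wnt4 ran with Mif (0.96), Itgb4 (0.95), the integrin of hemidesmosomes, and Phb2 (0.94). Wnt5a ran with C1qtnf7, Lamc3 and Nkd2 (each 0.92), and Nkd2 is an inhibitor of Wnt signalling. Wnt5b had Fibin, Bmp3 and Robo1 (each 0.94), Wnt6 had Bambi (0.89), Wnt10a (0.87) and Cdkn1a (0.81), and Wnt10a had Wnt6 (0.87), Endod1 (0.86) and Kank1 (0.82). Wnt7b had Gpsm2 (0.84), Slc35b1 (0.83) and Gtf2ird1 (0.82), and Wnt11 had Stmn4 (0.90), Ak1 (0.89) and Capn2 (0.87). Wnt10b had Slc38a2 (0.83), Btg3 (0.80) and Gnb5 (0.79), and Wnt16 had Hspb8 (0.85), Ppl (0.85) and Ablim1 (0.84). Wnt10b and Wnt16 reached at most 11.8 and 4.89 CPM in any sum, so their r values rest on few UMIs.

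The rest of the pathway was counted from a list of 41 gene symbols, of which 35 were tested. Adgra2 is listed under its former symbol Gpr124 as well. In the Krt14 gate 8 were called higher, 15 lower and 12 neither, beside 32.1% of all genes higher and 30.7% lower. Wnt3a (log2 6.71), Wnt7a (5.38) and Wnt3 (4.72) were the largest increases, though Wnt3a reached at most 5.09 CPM, Wnt7a 8.72 CPM and Wnt3 2.03 CPM there. Reck, a co-receptor for Wnt7 ligands (-4.29), the R-spondin Rspo1 (-3.55) and Adgra2, the partner of Reck (-3.34), were the largest decreases. Of 18 receptors and co-receptors 3 were higher and 11 lower, to be read against the same shares of all genes, and the secretion genes Porcn and Wls were not called. Reck stood at 5.62, 2.76 and 2.68 CPM in the Krt14 gate and at 44.4 to 208 CPM in the mesenchymal gates.

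Among the mesenchymal gates 1 or 2 of these 35 genes were called in each comparison, where 0.554% to 6.02% of all genes were called in a direction, so the counts say little of the list. The Ibsp gate had more Rspo1 than the Ifitm5 gate (1.03, edgeR adjusted p = 0.0343) and less of the receptor Fzd9 (-2.65, adjusted p = 0.0106). The Hand2 gate had more Rnf43 (1.85, adjusted p = 0.0275), a ubiquitin ligase that removes Frizzled receptors, at 5.84, 9.75 and 8.31 CPM. The Rgs5 gate had more Fzd8 (0.84, adjusted p = 0.0254) and less Fzd1 (-0.88, adjusted p = 0.0102). The Pappa2 gate had more Wls, the gene of Wntless (0.77, adjusted p = 0.0157), at 312, 223 and 330 CPM.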

How the data were processed

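UMI counts per gene and cell were deposited as matrices for 3 libraries, 1 per age. Per the labels the authors made them with Cell Ranger 6.1.2 on mm10, and the P25 file header names 6.0.1. The annotation is not given in the sources used here. Genes were joined by identifier, and no cell was dropped by quality. Cells were gated, and no doublet caller was run. Only cells positive for Krt14 or Ptprc together with another gate gene were set aside. Doublets within a gate, among the mesenchymal gates or with cells in no gate were therefore not removed. Thinning to 3000 UMIs left out 3499 of 27089 cells. Counts were summed per gate and library, filtered with filterByExpr, scaled by TMM and fitted with edgeR 4.0.16 (robust quasi-likelihood) in R 4.3.3, with a call at an adjusted p under 0.05, and the script was tested on simulated data. DESeq2 1.42.0 served as an alternative, beside other gate rules, filters, scalings and libraries left out. Python 3.11.15 with numpy 2.4.6, scipy 1.17.1, pandas 2.3.3 and matplotlib 3.10.9 made the levels and figures. All 9 ligands were named, with the 3 genes of highest r for each among genes of at least 50 CPM in 1 sum, and at most 3 called pathway genes per direction. The members and lists were chosen with earlier results of these data known. The Ibsp, Hand2, Notch3, Trp63, Coch, Col7a1, Pi16, Cilp2 and Smpd3 divisions were chosen after values were seen. Intervals cover counting error only. One sub-gate of the Krt14 gate is not reported here.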

Additional observations from a re-analysis of the deposited data

Results flagged for a closer look

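The direction of 2 differences turned between libraries, and these differences between ages were not tested. Wnt10b was higher in the Krt14 gate than in the pooled mesenchymal gates at P15 (6.25 against 1.67 CPM) and lower at P25 (6.101 against 10.2 CPM) and 8w (0.536 against 3.47 CPM, from 1 UMI in the Krt14 gate and with overlapping intervals). Over all cells Wnt10b stood at 1.60, 7.92 and 2.86 CPM, highest in P25, the library with another counting version and gene list. The part of that library in the turn was not tested. Wnt5b was lower in the Hand2 gate than in the other mesenchymal gates at P15 (16.4 against 34.5 CPM) and higher at P25 (66.8 against 57.3 CPM), and at 8w the intervals overlapped (76.7 against 81.3 CPM). With 1 library per age, no library was compared with others of its own group.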

How the results depend on the processing

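Of 634 ligand values under an alternative, 586 kept their call. Called values among these kept their direction, and uncalled ones stayed uncalled whatever their sign. A further 26 lost their call, 21 gained one in the same direction and 1 reversed. An uncalled value counted as reversed only if it was called in the other direction. The reversed value was Wnt10b in the epithelial comparison, -0.71 without P15 against 0.63 as reported and at most 1.10 with another library left out. The count of 6 ligands called in that comparison stayed within 1.5 times. With exactly 1 gate gene the ligands called were 5 (Ibsp against Ifitm5), 5 (Rgs5) and 0 (Pappa2), in place of 2, 2 and 1. Without the library block they were 0 in the first and 0 in the Rgs5 comparison, and with a share of 2 times the mean 1 (Rgs5) and 2 (Pappa2). The DESeq2 Wald test called 4 in the Pappa2 comparison, and sums of at least 100 cells, an alternative chosen after seeing the data, called 0. Leaving out each library in turn gave 0 to 4 ligands for Ibsp against Ifitm5, 1 to 4 for Hand2, 0 to 4 for Rgs5 and 0 to 2 for Pappa2. The counts over all genes moved by more than 1.5 times as follows. For Ibsp against Ifitm5 the 773 calls became 1737 with exactly 1 gate gene, 345 thinned, 1381 by DESeq2 Wald, 276 without the block, and 10, 68 and 2382 without P25, 8w and P15. For Hand2 the 751 became 398 thinned, 1227 by DESeq2 Wald, 368 without the block, and 20, 247 and 1231 without P25, 8w and P15. For Rgs5 the 1073 became 572 without the block, and 32, 259 and 2283 without P25, 8w and P15. For Pappa2 the 240 became 141 with at least 3 UMIs, 371 with 2 times the mean share, 113 with exactly 1 gate gene, 129 thinned, 637 by DESeq2 Wald, 137 without the block, 26 with sums of at least 100 cells, and 4 to 729 with a library left out. The cause was not tested. Total-count scaling, also chosen after seeing the data, moved the median of all genes in the Ibsp comparison from 0.02 to 0.18. The gate of the highest level changed only for Wnt10b and Wnt16, and Wnt16 was not tested after thinning. The comparisons were paired by library through the block.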
